A study of Homo sapiens with 6 samples.

Results

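The overnight transition is the step from 6 h to 24 h in a time course of Caco-2 cells cocultured with THP-1 cells, and it was taken from 2 of the 6 arrays of that course. The array of 24 h of coculture was set against the array of 6 h of coculture, as neighbouring times, and not against the start. Caco-2, a line from a human colon carcinoma, forms a polarised layer with traits of enterocytes. THP-1, a line from a human monocytic leukaemia, becomes adherent and like macrophages when treated with phorbol myristate acetate (PMA). In both groups the Caco-2 cells had grown for 14 days on a porous membrane, which was then set over THP-1 cells that had been given PMA for 4 days in plates of 12 wells. The groups differ by label only in time, and the other 4 arrays are from 0, 1, 3 and 48 h. Each time has 1 array, so n = 1 throughout, no test was possible and no p-value is given. No array of Caco-2 cells kept for the same time without THP-1 cells was analysed here, so time in culture and time in coculture cannot be told apart.

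Values are MAS5 signals, which are probe set intensities in arbitrary units. A signal under 16.2, the median of all values pooled over the arrays, was raised to that floor before log2 was taken, and each gene is given by its brightest probe set. A gene counted as higher or lower at 24 h when its 2 signals were at least 2-fold apart and the higher of them exceeded the floor. A fold against a signal at the floor is only a lower bound and is written as "at least". The arrays had 12296 genes above the floor at 24 h and 12290 at 6 h. For ACTB, the signal of the 3' control probe set over that of the 5' one gauges RNA integrity and labelling, and it was 27.9 at 24 h and 18.0 at 6 h, the lowest of the 6 arrays. The same ratio for GAPDH was 4.72 at 24 h and 3.54 at 6 h. The 18 spiked hybridisation control probe sets had a median log2 ratio of 0.28, 24 h minus 6 h. The part of these differences in the results below was not tested. All 16 Caco-2 marker genes were above the floor on every array, with a summed signal of 32044 at 24 h and 29365 at 6 h. Of 22 macrophage marker genes, 8 were above the floor at 24 h and 6 at 6 h, and their summed signal was 372 at 24 h and 497 at 6 h, within a range of 301 to 702 over the course. The defining leukocyte genes PTPRC and SPI1 were under the floor on all 6 arrays, as were CD52, FCGR1A, MARCO, CHIT1, MRC1 and FCGR2A. CD14, the monocyte receptor for lipopolysaccharide, was above the floor on all 6 arrays, with 43.4 at 24 h and 41.9 at 6 h in a range of 41.9 to 59.8. AIF1, a calcium-binding protein of macrophages, was also above it on all 6, with 96.5 at 24 h and 153 at 6 h in a course of 360.0, 229, 111, 153, 96.5 and 43.0. LAPTM5, a lysosomal membrane protein of blood cells, had a signal of 64.5 at 24 h and 141 at 6 h, 2.18-fold lower, though its 3 h signal was 48.8. In RNA of a whole layer, fewer cells of a type and less RNA per cell cannot be told apart.

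As background, epithelial cells that sense inflammatory cytokines release the NF-kB transcription factors from their inhibitors within minutes. These factors switch on chemokine genes together with genes for their own inhibitors, so that the response damps itself. Immediate early genes follow mitogen-activated kinases in the same quick way and their messages are short-lived. In enterocytes, inflammatory signals are known to bear on the genes of absorption, lipid export and detoxification that mark the differentiated cell. Differentiated Caco-2 layers also make plasma proteins best known from liver.

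At 24 h against 6 h, 312 of 13337 genes tested were higher and 357 were lower. These are the background shares against which gene groups are read: 2.34% of genes tested were higher and 2.68% were lower. The dimmer array was at the floor for 84 of the higher and 91 of the lower genes. Changes were mostly small, and 79.7% of genes tested differed less than 1.5-fold. Larger falls outnumbered larger rises, with 21 genes at least 3-fold higher and 50 at least 3-fold lower, and with 5 at least 4-fold higher and 17 at least 4-fold lower. Among the 7376 genes whose brighter signal reached 100, 85 (1.15%) were higher and 171 (2.32%) were lower. The median log2 ratio over all genes tested was 0.04, and the medians of gene lists below are read against it.

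**Figure D1:**
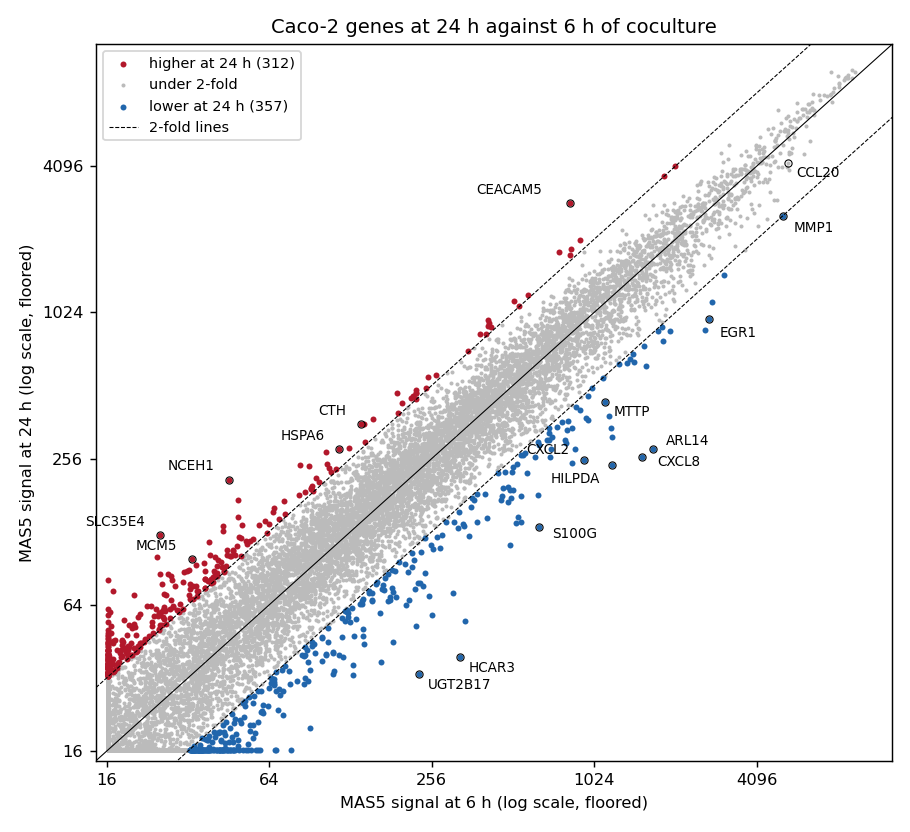
Each point is 1 gene tested, with its signal at 24 h (vertical, log scale) against its signal at 6 h (horizontal, log scale), both raised to the floor of 16.2. The 312 genes higher at 24 h are red and the 357 lower are blue, beyond the dashed 2-fold lines. The blue points reach farther from the diagonal among bright genes, down to HCAR3 at 38.9 at 24 h against 326 at 6 h.

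Genes for neutrophil attractants were among the largest falls. CXCL8, which encodes interleukin-8, had a signal of 261 at 24 h against 1541 at 6 h, 5.91-fold lower. CXCL2 had 253 at 24 h against 938 at 6 h, 3.71-fold lower. CXCL1 had 180 at 24 h against 548 at 6 h and CXCL3 had 109 at 24 h against 259 at 6 h, 3.05-fold and 2.38-fold lower. These are 4 of the 5 neutrophil-attracting CXC genes tested, against 2.68% of all genes tested that were lower, and the list's median log2 ratio was -1.61. The fifth, PPBP, had 16.4 at 24 h and was under the floor at 6 h. Over the whole course CXCL8 had signals of 8.50, 652, 925, 1541, 261 and 36.05 at 0, 1, 3, 6, 24 and 48 h, so that 6 h was its highest array and the level at 24 h was still above that at 0 h. CXCL1 peaked earlier, with 27.8, 1158, 667, 548, 180 and 42.5 at the same times. CXCL2 lay between 889.8 and 948 from 1 to 6 h, and had 116 at 48 h against 135 at 0 h. A second probe set of CXCL8 and the least changed of 3 probe sets of CXCL2 moved less, with log2 ratios of -0.32 and -0.27. CXCL1, CXCL2 and CXCL3 are close copies of each other, so probes may share signal among them.

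The promoters of these 4 genes are shown because the genes moved together and each holds a match to the NF-kB motif GGNNTTTCC, which is in capitals. The sequences are the 250 bases before the start in RefSeq, assembly GRCh38.p14, on the strand of the gene, 5' to 3'. CXCL8 lies at chr4:73740319-73740568 on the plus strand, CXCL1 at chr4:73869143-73869392 on the plus strand, CXCL2 at chr4:74099196-74099445 on the minus strand and CXCL3 at chr4:74038690-74038939 on the minus strand.
CXCL8: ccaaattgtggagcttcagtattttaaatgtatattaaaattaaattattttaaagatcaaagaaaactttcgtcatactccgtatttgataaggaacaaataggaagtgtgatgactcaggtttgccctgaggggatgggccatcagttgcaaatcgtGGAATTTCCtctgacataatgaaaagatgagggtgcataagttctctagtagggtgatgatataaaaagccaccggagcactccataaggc
CXCL1: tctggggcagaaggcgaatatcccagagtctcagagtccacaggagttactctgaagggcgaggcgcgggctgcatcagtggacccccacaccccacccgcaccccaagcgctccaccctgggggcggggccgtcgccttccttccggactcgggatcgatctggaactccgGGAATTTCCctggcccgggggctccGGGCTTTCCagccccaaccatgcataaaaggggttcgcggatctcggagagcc
CXCL2: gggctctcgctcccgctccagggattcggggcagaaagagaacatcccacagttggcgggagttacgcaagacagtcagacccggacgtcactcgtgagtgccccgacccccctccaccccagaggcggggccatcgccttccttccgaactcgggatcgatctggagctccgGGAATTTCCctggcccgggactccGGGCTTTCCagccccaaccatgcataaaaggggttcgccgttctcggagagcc
CXCL3: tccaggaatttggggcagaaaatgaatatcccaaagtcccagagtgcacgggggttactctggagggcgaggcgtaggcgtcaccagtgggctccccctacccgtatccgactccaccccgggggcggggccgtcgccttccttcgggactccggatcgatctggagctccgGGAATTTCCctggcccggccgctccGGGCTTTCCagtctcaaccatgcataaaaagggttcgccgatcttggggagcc

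CXCL8 held 1 match, from -91 to -83 relative to the start. CXCL1 and CXCL3 each held 2 matches, from -78 to -70 and from -53 to -45, and CXCL2 had them from -77 to -69 and from -53 to -45. The upstream match reads GGAATTTCC in all 4 promoters, and the downstream match of CXCL1, CXCL2 and CXCL3 reads GGGCTTTCC. From -53 to -1, CXCL1 and CXCL2 were identical at 51 of 53 bases, and CXCL3 was identical to each of them at 47. Searched on both strands over 250 bases before to 50 after the start, the motif occurred in 6.26% of all 27305 promoters and in 6.65% of the 10740 genes tested that have one. Among genes with a promoter it occurred in 26 of 266 lower at 24 h (9.77%) and in 16 of 241 higher at 24 h (6.64%). A match is a description of the letters and does not show binding.

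Other secreted attractants differed more among themselves. CXCL10, which attracts T cells and responds to interferon, had 113 at 24 h against 255 at 6 h, 2.25-fold lower. CCL20, which draws cells bearing CCR6, had 4229 at 24 h against 5321 at 6 h, a 1.26-fold difference that misses the size rule. It then had 1286 at 48 h, so the larger drop of this chemokine came at the next array. CXCL10 was the 1 of 7 chemokines of lymphocytes and monocytes past 2-fold, and the list's median was -0.33. Of 14 cytokine genes tested, TNFSF10 and IL1B were lower and IL1RN was higher. TNFSF10, the death ligand TRAIL, had 27.1 at 24 h against 70.4 at 6 h, and it had already dropped to 93.9 at 3 h, against 281 at 0 h. IL1B, interleukin-1 beta, had 44.9 at 24 h against 92.1 at 6 h. IL1RN, the antagonist of the interleukin-1 receptor, had 35.5 at 24 h and was under the floor at 6 h, at least 2.19-fold higher, though its second probe set had a log2 ratio of 0.05. LTB, lymphotoxin beta, had 74.7 at 24 h against 142 at 6 h, just inside 2-fold.

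Some genes of the NF-kB pathway were lower alongside the chemokines. Of 34 genes tested in 3 lists of its inhibitors, subunits and other targets, 9 were lower and 0 higher. Of all genes tested, 2.68% were lower. Without probe sets of the suffixes _x_at and _s_at, 0 of 9 inhibitors, 3 of 4 subunits and 1 of 13 other targets were lower. With a pseudocount in place of the floor, 2 of 11 inhibitors, 1 of 5 subunits and 2 of 18 other targets were. The precursor gene NFKB1 had 190 at 24 h against 497 at 6 h, 2.61-fold lower, and NFKB2 had 182 at 24 h against 377 at 6 h. REL had 176 at 24 h against 361 at 6 h, 2.05-fold lower. The other two subunits, RELB with a log2 ratio of -0.43 and RELA with -0.19, stayed inside 2-fold. Among inhibitors, NFKBIA, which holds NF-kB in the cytoplasm, had 1457 at 24 h against 3103 at 6 h. TNFAIP3, the deubiquitinase A20, had 890 at 24 h against 1819 at 6 h. Both were just past 2-fold, at 2.13-fold and 2.04-fold, and both had been near their 6 h level since 1 h. A second probe set of NFKBIA ran the other way, with a log2 ratio of 0.43, while the probe sets of TNFAIP3 both fell, by 1.03 and 1.26 on the log2 scale. The inhibitor list as a whole had a median of -0.15, with 6 of 11 below 0.

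Among 18 survival and other targets of NF-kB, IER3, CD83, ICAM1 and PLAU were lower and the median was -0.36. IER3, an early-response regulator of apoptosis, had 1123 at 24 h against 2783 at 6 h, 2.48-fold lower, after 3763 at 1 h. ICAM1, the adhesion molecule for leukocyte integrins, had 225 at 24 h against 506 at 6 h, 2.25-fold lower, but another of its 3 probe sets had a log2 ratio of 0.08. CD83, a surface molecule best known from dendritic cells, had 45.1 at 24 h against 105 at 6 h. PLAU, urokinase, was under the floor at 24 h against 32.6 at 6 h, at least 2.01-fold lower. Receptor genes moved less, with 1 of 58 tested higher and 3 lower across the lists of Toll-like and interleukin-1, TNF and TRAIL, and JAK-STAT signalling. IFNGR2, a subunit of the interferon gamma receptor, had 368 at 24 h against 970 at 6 h, 2.63-fold lower. IRAK2, a kinase of interleukin-1 signalling, had 341 at 24 h against 697 at 6 h. TNFRSF11B, the decoy receptor osteoprotegerin, had 264 at 24 h against 546 at 6 h. The higher one was TNFRSF11A, the receptor RANK, with 35.1 at 24 h and a signal under the floor at 6 h.

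**Figure D2:**
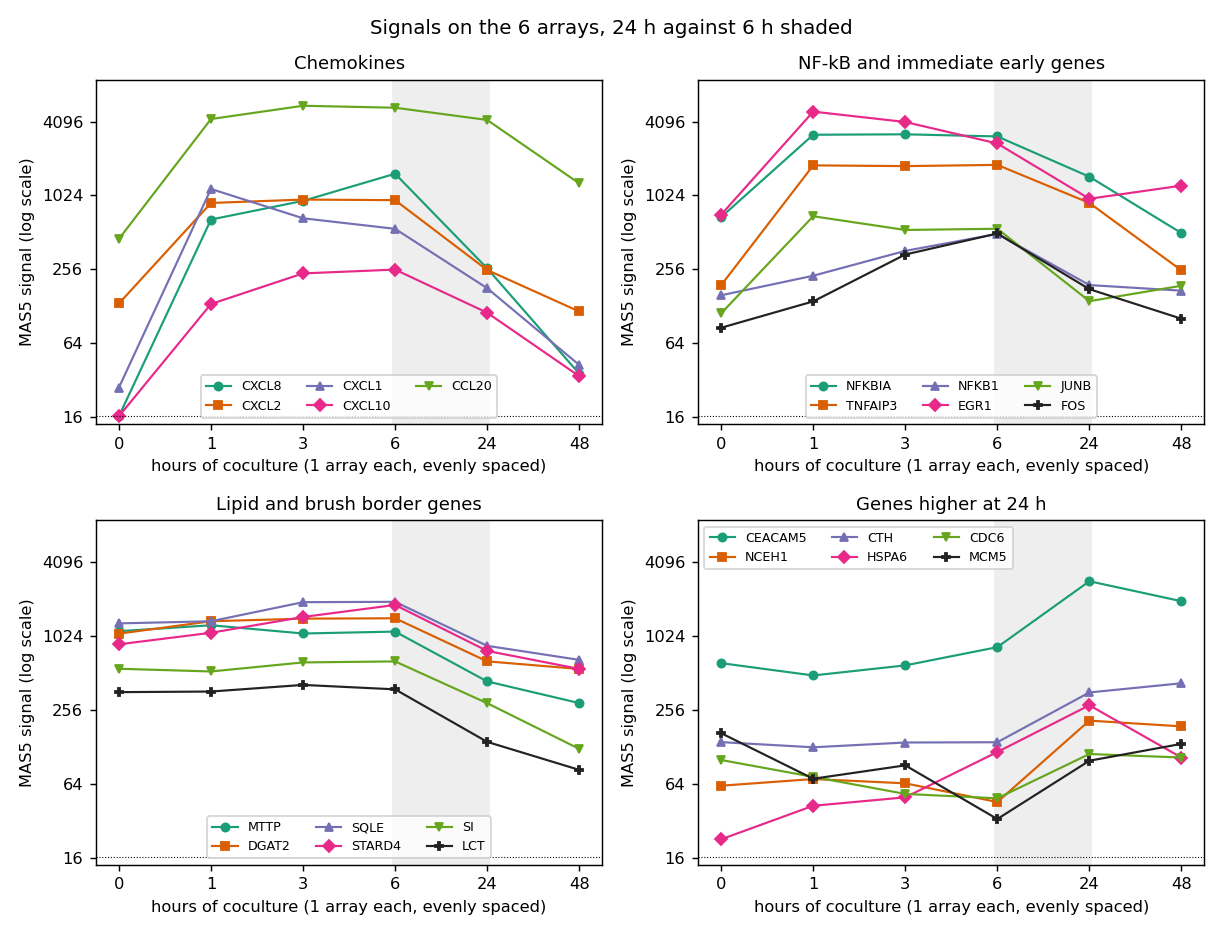
Signals of 23 genes on the 6 arrays (vertical, log scale, floor dotted at 16.2) over hours of coculture (horizontal, evenly spaced), 1 array at each time, with 6 h and 24 h shaded. Chemokine, NF-kB and immediate early genes drop across the shaded step after a plateau or peak from 1 to 6 h, CCL20 less than the others. The lipid and brush border genes drop from 6 h levels near or above those of 0 h, and CEACAM5 is at 2874 at 24 h against 833 at 6 h.

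Immediate early transcription factors, MAP kinase phosphatases, Ras feedback genes and message decay factors were read together as a block. It had the lowest median of the blocks, -0.52 over 54 genes tested, with 11 lower and 0 higher. JUNB, a subunit of the AP-1 transcription factor, had 141 at 24 h against 548 at 6 h, 3.89-fold lower. FOS, its partner, had 176 at 24 h against 502 at 6 h, and FOSL1 had 50.8 at 24 h against 142 at 6 h. EGR1, a zinc-finger factor of growth factor signals, had 963 at 24 h against 2718 at 6 h, 2.82-fold lower in its brightest probe set and lower in all 3. The 4 genes had reached these levels differently. EGR1 peaked at 4944 at 1 h and FOSL1 at 241 at 1 h, whereas FOS climbed through 85.4, 140, 338 and 502 over the first 4 arrays. Of 22 immediate early transcription factors 7 were lower. JUN had 472 at 24 h against 800 at 6 h and KLF6 had 1607 at 24 h against 2614 at 6 h, both inside 2-fold. ATF3, a stress-induced factor, had 436 at 24 h against 347 at 6 h, the highest log2 ratio of the list at 0.33. NR4A1, an orphan nuclear receptor, had 108 at 24 h against 114 at 6 h, having dropped from its 1 h level of 381 well before this step.

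Genes of the same block that brake kinase signalling or message stability were lower in part. Of 11 genes of Ras feedback, 10 had a log2 ratio below 0, 3 were lower and the median was -0.65. SPRY4, a Sprouty inhibitor of Ras signalling, had 56.7 at 24 h against 119 at 6 h. EPHA2, an ephrin receptor, had 224 at 24 h against 452 at 6 h. SPRED3 was under the floor at 24 h against 57.4 at 6 h, at least 3.54-fold lower. The MAP kinase phosphatases had no member past 2-fold among 11, with DUSP4 at 226 at 24 h against 336 at 6 h. ZFP36, which binds and destabilises cytokine messages, had 383 at 24 h against 1164 at 6 h, 3.04-fold lower, and was the 1 of 10 decay factors past the rule. None of 42 genes tested in the EGF, TGF-beta and BMP, and Wnt lists was past 2-fold. BMP2, a bone morphogenetic protein, had 1509 at 24 h against 2280 at 6 h. ID1, a target of that pathway, had 40.3 at 24 h against 41.6 at 6 h, having been at 1110 at 1 h. The Wnt target list had a median of 0.35 with 11 of 14 above 0, led by ASCL2 at 251 at 24 h against 145 at 6 h and AXIN2 at 254 at 24 h against 164 at 6 h.

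Matrix and adhesion genes were mixed, with 2 of 71 higher and 5 lower. MMP1, the interstitial collagenase, had 2547 at 24 h against 5096 at 6 h, 2.001-fold lower and just past the rule, and it had 517 at 48 h against 475 at 0 h. PLAUR, the urokinase receptor, had 146 at 24 h against 410 at 6 h, 2.81-fold lower, but 1 of its 3 probe sets had a log2 ratio of 0.06. MMP9, a gelatinase, had 47.0 at 24 h against 119 at 6 h, and 24.7 at 3 h, so that its fall rests on a high 6 h array. ITGB8, an integrin subunit, had 147 at 24 h against 535 at 6 h, 3.63-fold lower, and was back at 330 at 48 h. ITGA2, the collagen-binding integrin subunit, had 1464 at 24 h against 2349 at 6 h. CCN2, connective tissue growth factor, had 711 at 24 h against 350 at 6 h, 2.03-fold higher. The other higher gene, MMP28, had 59.1 at 24 h against 25.1 at 6 h, but its 4 probe sets ran from -0.95 to 1.23 on the log2 scale. FRAS1, a basement membrane protein, was lower, with 300.5 at 24 h against 634 at 6 h. No claudin or tight junction gene among 15, no adherens junction or desmosome gene among 13 and no keratin among 5 was past 2-fold. The 5 keratins had log2 ratios from 0.10 to 0.37, with KRT20 at 836 at 24 h against 674 at 6 h.

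In mucosal defence, 1 of 21 genes was lower, the mucin MUC12, under the floor at 24 h against 35.6 at 6 h, and 1 was higher, REG4, a secreted lectin, with 41.3 at 24 h against 20.7 at 6 h. Interferon-stimulated genes were mixed. Of 23 tested, 4 were lower, 1 was higher and the median was -0.04. SP100, a protein of nuclear bodies, was the higher one, with 60.2 at 24 h against 29.5 at 6 h. IFIT1, which binds viral RNA, had 44.1 at 24 h against 144 at 6 h, 3.26-fold lower, and 106 at 48 h. OASL, DDX60 and IFI6 were under the floor at 24 h against 42.9, 34.0 and 33.2 at 6 h, so that their falls are bounds on dim genes. No gene of MHC class I and peptide loading among 17 was past 2-fold, and the median was 0.15. The inflammasome list had no member past 2-fold among 13. CASP5, an inflammatory caspase, had 68.5 at 24 h against 35.3 at 6 h, 1.94-fold, before reaching 313 at 48 h.

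HILPDA, a lipid droplet protein induced by hypoxia, had 241 at 24 h against 1191 at 6 h, 4.94-fold lower with both probe sets lower. It had 554, 132, 590 and 528 at 0, 1, 3 and 48 h. PFKFB3, a regulator of glycolysis, had 193 at 24 h against 471 at 6 h and between 190 and 234 on the other 4 arrays. PFKFB4 had 225 at 24 h against 477 at 6 h. PDK1, a kinase that inhibits pyruvate dehydrogenase, had 935 at 24 h against 1819 at 6 h, 1.94-fold. These 3 calls came among 22 hypoxia targets whose median was -0.23 and of which 9 were above 0. Against the 3 h array in place of 6 h that median was 0.08, so the direction of the list rests on which early array is used.

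All 18 heat shock proteins and cochaperones tested had a log2 ratio above 0, from 0.10 to 1.37, with 4 higher and a median of 0.32. DNAJB4, a cochaperone, had 79.6 at 24 h against 30.8 at 6 h, 2.58-fold higher. HSPA6, a strictly inducible member of the HSP70 family, had 280 at 24 h against 116 at 6 h, 2.41-fold higher with both probe sets at least 2-fold. It climbed through 22.6, 42.4, 49.7, 116 and 280 before 105 at 48 h. HSPA4L had 66.9 at 24 h against 27.8 at 6 h and HSPA2 had 64.8 at 24 h against 29.9 at 6 h. The abundant chaperone HSPD1 had 8887 at 24 h against 8228 at 6 h, a small difference. Taking instead the median of all probe sets per gene, 14 of 18 were above 0, and without probe sets of the suffixes _x_at and _s_at 8 of 12 did. The promoter of HSPA6 is shown for its 2 matches to the heat shock element GAANNTTC, in capitals, from -180 to -173 and from -69 to -62. It lies at chr1:161524290-161524539 on the plus strand of GRCh38.p14, and the 250 bases before the RefSeq start are given.
HSPA6: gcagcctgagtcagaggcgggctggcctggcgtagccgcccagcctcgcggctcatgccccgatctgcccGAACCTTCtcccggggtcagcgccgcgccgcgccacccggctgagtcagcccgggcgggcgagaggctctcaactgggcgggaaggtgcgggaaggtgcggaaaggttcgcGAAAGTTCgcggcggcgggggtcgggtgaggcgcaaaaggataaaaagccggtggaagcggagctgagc

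The heat shock element occurred in 5 of 16 promoters of the heat shock list, in 4.66% of genes tested and in 6.87% of all promoters. It occurred in 12 of 241 promoters of genes higher at 24 h (4.98%) and in 16 of 266 of genes lower (6.02%). Of the 5 in the list, only HSPA6 was past 2-fold, and the other higher genes DNAJB4, HSPA4L and HSPA2 held no match. No gene of the unfolded protein and integrated stress response among 26 was past 2-fold, though DNAJB9, a chaperone of the endoplasmic reticulum, had 2571 at 24 h against 1572 at 6 h, 1.64-fold. Of 20 antioxidant genes, GPX2, the gastrointestinal glutathione peroxidase, was 2.88-fold higher, with 240 at 24 h against 83.4 at 6 h, while its second probe set had a log2 ratio of -0.28. SLC7A11, which imports cystine, was 2.52-fold lower, with 281 at 24 h against 708 at 6 h. The 6 h level of SLC7A11 matched its 3 h level of 700, and the 24 h level its 0 h level of 272. TXNIP, which binds thioredoxin, had 163 at 24 h against 201 at 6 h, far under its 0 h signal of 955. Of 10 metallothionein and zinc transporter genes 1 was lower, and of 15 clock genes 1 was lower, NFIL3, a repressor with a circadian rhythm, with 745 at 24 h against 1569 at 6 h. Of 16 targets of p53, DDB2, a DNA damage sensor, was the 1 higher, with 59.7 at 24 h against 25.4 at 6 h.

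Among functions of the differentiated enterocyte, more genes were lower than higher. The lists here cover plasma proteins, complement, lipid, brush border, microvillus, absorption, transport, detoxification, and intestinal and hepatic transcription factors. Across their 217 genes tested, 33 were lower and 3 were higher, with a median of -0.24. Of all genes tested, 2.68% were lower and 2.34% higher. In cholesterol synthesis and uptake 20 of 22 genes had a log2 ratio below 0, 4 were lower and the median was -0.63. INSIG2, which retains the sterol sensor in the endoplasmic reticulum, had 279 at 24 h against 865 at 6 h, 3.10-fold lower, and 412 at 3 h. STARD4, a sterol carrier, had 777 at 24 h against 1841 at 6 h. SQLE, squalene epoxidase, had 855 at 24 h against 1952 at 6 h, and all 4 of its probe sets had a log2 ratio below 0. HMGCS1, which makes the precursor of mevalonate, had 2470 at 24 h against 4451 at 6 h, 1.80-fold. ACAT2, an acetyl-CoA acetyltransferase, had 463 at 24 h against 969 at 6 h. Lipoprotein assembly moved the same way, with 3 of 16 lower and a median of -0.44. That fall depended on the probe sets. Without those of the suffixes _x_at and _s_at, 1 of 8 was lower, 4 were above 0 and the median was -0.07. MTTP, which loads lipid onto apolipoprotein B, had 438 at 24 h against 1116 at 6 h, 2.55-fold lower. DGAT2, which makes triglyceride, had 639 at 24 h against 1433 at 6 h, 2.24-fold lower. APOA5 had 31.6 at 24 h against 66.1 at 6 h. APOA4, the chylomicron apolipoprotein, had 714 at 24 h against 1029 at 6 h and APOB had 4597 at 24 h against 6110 at 6 h, both inside 2-fold.

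Enzymes of the brush border, the absorptive face of the cell, were lower in 4 of 10 cases, with a median of -0.48. LCT, lactase, had 141 at 24 h against 377 at 6 h, 2.68-fold lower, and SI, sucrase-isomaltase, had 291 at 24 h against 638 at 6 h, 2.19-fold lower. Both had stayed within 358 to 410 and 528 to 638 over the first 4 arrays, and both were lower again at 48 h, with 83.2 and 123. The peptidase gene XPNPEP2 had 173 at 24 h against 462 at 6 h and NAALADL1 had 40.8 at 24 h against 110 at 6 h. ALPI, intestinal alkaline phosphatase, had 37.3 at 24 h against 58.9 at 6 h. Among structural genes of the microvillus 2 of 16 were lower and the median was 0.04. CDHR5, a cadherin that links microvilli, had 625 at 24 h against 1265 at 6 h. Markers of the line itself included SI as the 1 lower gene, while GPA33, an intestinal surface antigen, had 1811 at 24 h against 939 at 6 h, 1.93-fold.

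Single absorption genes were among the largest falls. In vitamin D, calcium, iron and bile acid handling 2 of 14 genes were lower, 1 was higher and the median was -0.11. Of 19 sugar, peptide and amino acid transporters 2 were lower and 0 higher, with a median of -0.17 and 8 above 0. S100G, calbindin, which carries calcium through the enterocyte, had 134 at 24 h against 641 at 6 h, 4.79-fold lower. It declined over the whole course, with 1699, 1341, 1093, 641, 134 and 39.8 at 0, 1, 3, 6, 24 and 48 h. SLC10A2, the ileal bile acid importer, had 52.2 at 24 h against 224 at 6 h, 4.28-fold lower, from a plateau of 224 to 340 over the first 4 arrays. FABP6, the ileal bile acid carrier, had 45.2 at 24 h against 88.2 at 6 h, 1.95-fold. CYP27B1, which activates vitamin D, went the other way, with 114 at 24 h against 53 at 6 h, 2.15-fold higher. SLC5A11, a sodium-coupled inositol transporter, was under the floor at 24 h against 77.1 at 6 h, at least 4.75-fold lower. SLC2A5, the fructose transporter, had 345 at 24 h against 747 at 6 h, 2.17-fold lower. Of 16 fatty acid genes 2 were higher and 0 lower. CPT2, a carnitine acyltransferase of mitochondria, had 239 at 24 h against 89.9 at 6 h, 2.66-fold higher, with a second probe set at a log2 ratio of 0.11. SLC27A4, a fatty acid transport protein, had 45.5 at 24 h against 16.9 at 6 h, but 44.6 at 3 h. SLC27A2, of the same family, had 561 at 24 h against 1120 at 6 h and lay just outside the rule with a log2 ratio of -0.998. FABP1, the liver fatty acid binding protein, had 1035 at 24 h against 1185 at 6 h.

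Liver-type plasma protein genes were lower in 5 of 25 cases, with 21 below 0 and a median of -0.39. FGA, the fibrinogen alpha chain, had 44.9 at 24 h against 184 at 6 h, 4.10-fold lower with both probe sets lower. FGG, the gamma chain, had 337 at 24 h against 810.2 at 6 h, 2.41-fold lower, and FGB, the beta chain, had 699 at 24 h against 1331 at 6 h, 1.90-fold. FGB had 267 at 48 h against 1815 at 3 h. SERPIND1, heparin cofactor, had 78.8 at 24 h against 227 at 6 h, and SERPINC1, antithrombin, had 97.6 at 24 h against 219.7 at 6 h. TF, the iron carrier transferrin, had 173 at 24 h against 366 at 6 h and had declined since 0 h. ALB, albumin, had 1805 at 24 h against 2371 at 6 h, and AHSG, fetuin, had 6528 at 24 h against 6284 at 6 h with log2 ratios of -0.39 and 0.05. Of 15 complement genes 1 was lower, C8B, which was under the floor at 24 h against 42.6 at 6 h. The promoter of FGA is shown for its match to the HNF1 motif GTTAATNAT, HNF1 being a transcription factor of liver and intestine. The match is in capitals, on the strand opposite to the gene, from -55 to -47. The 250 bases before the RefSeq start lie at chr4:154590743-154590992 on the minus strand of GRCh38.p14.
FGA: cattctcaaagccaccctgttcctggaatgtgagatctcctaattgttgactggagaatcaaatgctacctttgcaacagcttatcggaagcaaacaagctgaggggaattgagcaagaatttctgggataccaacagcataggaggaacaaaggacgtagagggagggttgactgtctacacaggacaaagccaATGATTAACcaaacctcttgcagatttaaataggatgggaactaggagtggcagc

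The HNF1 motif was found in 3 of 21 promoters of the plasma protein list, against 0.466% of genes tested and 0.751% of all promoters. It was in 2 of 241 promoters of genes higher at 24 h and in 3 of 266 of genes lower. Of the 3 in the list, only FGA was lower, while AFP and ALB had log2 ratios of -0.31 and -0.39. The promoters of FGB and FGG held no match, though FGG was lower. Of 24 genes of drug metabolism and conjugation 8 were lower and 20 were below 0, with a median of -0.65. UGT2B17, a glucuronosyltransferase of steroids, had 33.1 at 24 h against 229.5 at 6 h, 6.94-fold lower, and 14.2 at 48 h against 279.6 at 0 h. Its close copy UGT2B15 had 79.1 at 24 h against 160.3 at 6 h, and probes may share signal between the 2 genes. GSTA1, a glutathione transferase, had 138 at 24 h against 523 at 6 h, but its second probe set had a log2 ratio of 0.57 and near-identical copies exist. FMO1, a flavin monooxygenase, had 31.9 at 24 h against 87.0 at 6 h. CYP3A4, a cytochrome of drug oxidation, was under the floor at 24 h against 55.0 at 6 h, at least 3.39-fold lower, and it had 20.2 at 48 h. DHRS9, a retinol dehydrogenase, had 113 at 24 h against 499 at 6 h, 4.44-fold lower, with its 3 probe sets between -2.27 and -2.15 on the log2 scale. It had 42.6 at 0 h and 34.5 at 48 h, so that 3 h and 6 h were its high arrays, whereas UGT2B17, GSTA1 and FMO1 had their highest or near highest signals at 0 h. ADH4, an alcohol dehydrogenase, had 104 at 24 h against 217 at 6 h. Neither ABC transporters (10 tested) nor intestinal and hepatic transcription factors (16 tested) had a member past 2-fold. ABCC2 had 361 at 24 h against 659.9 at 6 h, and CDX2, an intestinal master regulator, had 53.5 at 24 h against 36.9 at 6 h.

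**Figure D3:**
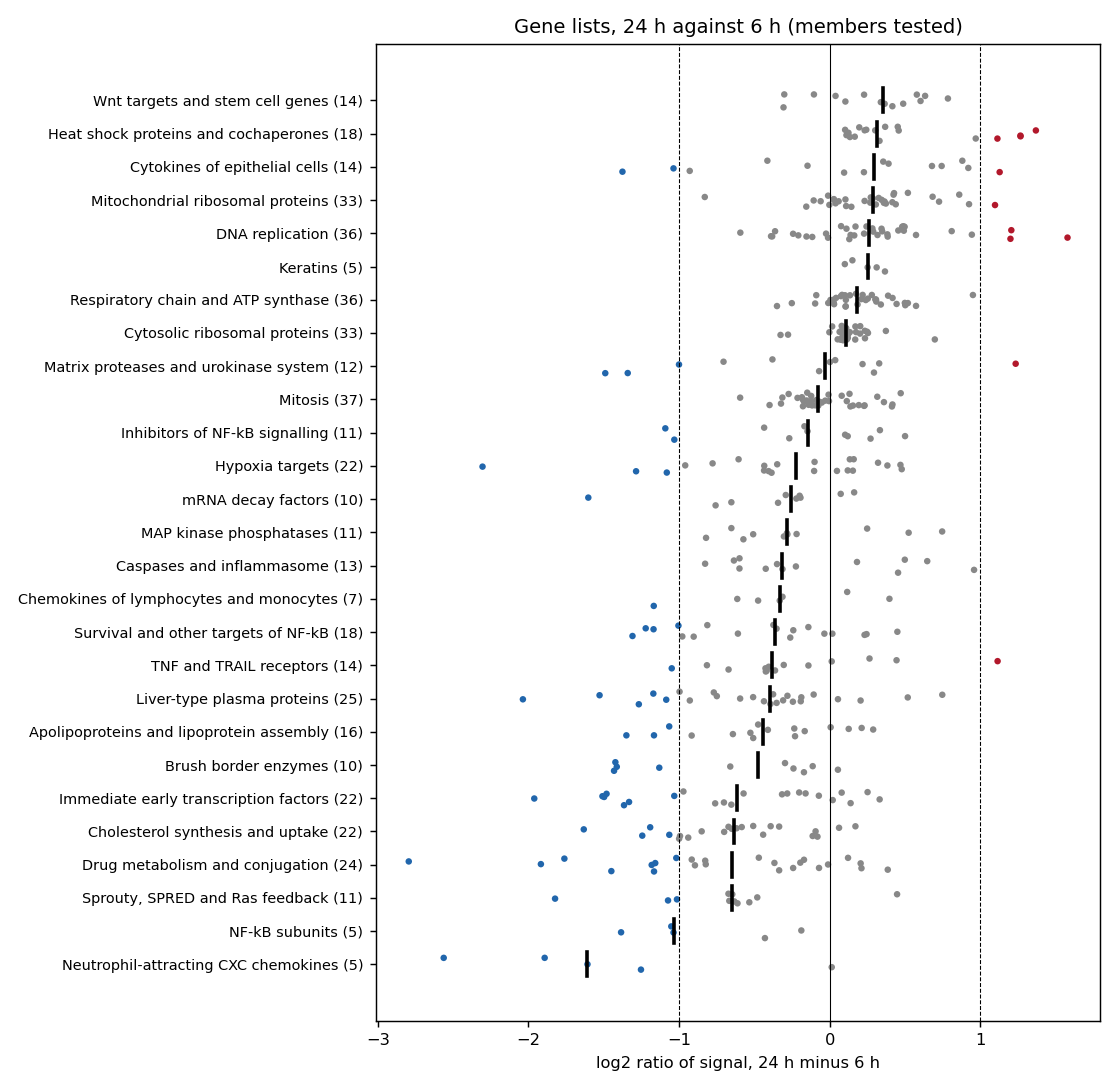
Log2 ratio of signal, 24 h minus 6 h (horizontal), of each member tested in 27 of the 55 gene lists (those with a median at least 0.25 from 0, and 6 others for comparison), with the number tested in brackets and the list median as a black bar. Red points are at least 2-fold higher at 24 h and blue points at least 2-fold lower, beyond the dashed lines. The CXC chemokines have the lowest median, -1.61, all 18 heat shock genes lie right of 0, and the lists of cholesterol synthesis and drug metabolism lie mostly left of it.

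Genes of growth and energy had slightly positive ratios. Across 214 tested, 6 were higher and 2 lower, against 2.34% and 2.68% of all genes tested, so the count of higher genes was near background. The median was 0.13 against 0.04 over all genes. As that median over all genes is above 0, most genes tested also had a ratio above 0. Of 36 DNA replication genes, MCM5, E2F2 and CDC6 were higher and 26 were above 0. Against 3 h in place of 6 h, 1 of the 36 was higher, 21 were above 0 and the median was 0.09, against 0.26 in the main setting. MCM5, a subunit of the replicative helicase, had 98.8 at 24 h against 33.1 at 6 h, 2.99-fold higher, in a course of 166, 70.4, 90.6, 33.1, 98.8 and 136. CDC6, which loads that helicase, had 112 at 24 h against 48.8 at 6 h, and 100.1 at 0 h. FEN1, a flap endonuclease, had 274 at 24 h against 142 at 6 h, 1.92-fold. So the 24 h signals of CDC6 and FEN1 were close to those at 0 h, and the 6 h array was the lowest for all 3 genes. None of 37 mitosis genes was past 2-fold and their median was -0.08. Respiratory chain genes had no member past 2-fold among 36, with 31 above 0 and a median of 0.18, as for NDUFB9 at 734 at 24 h against 518 at 6 h. Cytosolic ribosomal proteins had 30 of 33 above 0 and a median of 0.11, and mitochondrial ribosomal proteins had 27 of 33 above 0 and a median of 0.29. With quantile normalization the cytosolic ones had 24 of 33 above 0 and a median of 0.049. Against 3 h in place of 6 h, 21 of 36 respiratory chain genes, 19 of 33 cytosolic and 19 of 33 mitochondrial ribosomal protein genes were above 0, with medians of 0.07, 0.04 and 0.08. Of the mitochondrial ribosomal proteins, MRPS16 was past 2-fold, with 186 at 24 h against 86.9 at 6 h, and 195 at 3 h. In ribosome assembly, NIP7 had 374 at 24 h against 155 at 6 h and PES1 had 137 at 24 h against 58.6 at 6 h, 2 of 20 genes higher. PCK1, which makes phosphoenolpyruvate in gluconeogenesis, had 314 at 24 h against 1192 at 6 h, 3.80-fold lower, after 2168 at 1 h. FBP1, of the same pathway, had 30.2 at 24 h against 66.5 at 6 h, whereas the glycolytic ENO1 had 2472 at 24 h against 1628 at 6 h.

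Outside the lists, the largest supported rises were in genes of varied function. Support meant another probe set, or 48 h against 3 h, at least 1.5-fold the same way. The genes named here all met the 48 h condition, so their 48 h signals are no separate sign of lasting rises. SLC35E4, of a family with nucleotide sugar transporters, had 124 at 24 h against 25.2 at 6 h, 4.93-fold higher, but its second probe set had a log2 ratio of 0.11. NCEH1, a cholesterol ester hydrolase, had 210 at 24 h against 45.5 at 6 h, 4.61-fold higher, and had 188 at 48 h. NRP1, neuropilin, a coreceptor of vascular growth factors and semaphorins, had 101 at 24 h against 24.6 at 6 h. Its earlier arrays lay between 57.1 and 75.1, so that 4.11-fold step was measured against a low 6 h array. SERPINI1, neuroserpin, had 172 at 24 h against 49.3 at 6 h after a decline from 133 at 0 h. CEACAM5, carcinoembryonic antigen, was the brightest of these genes, with 617, 490, 592, 833, 2874 and 1975 over the 6 arrays, 3.45-fold higher at 24 h than at 6 h. L1CAM, an adhesion molecule, had 135 at 24 h against 43.2 at 6 h and 151 at 48 h. CTH, which makes cysteine, had 356 at 24 h against 139.8 at 6 h, having been between 127 and 140.1 on the 4 early arrays, and 423 at 48 h. RASEF, of the Rab GTPase family, had 137 at 24 h against 50.9 at 6 h, with both probe sets at least 2-fold higher. The others were LINC01558, TLCD2, GOLPH3L, COMMD2 and EAF2, from 3.02-fold to 2.49-fold.

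The largest supported falls outside the lists were in genes of which all but SOX5 had been at least 2-fold above 0 h by 6 h. HCAR3, a receptor of hydroxylated fatty acids, had 38.9 at 24 h against 326 at 6 h, 8.37-fold lower, after 75.8, 127 and 569.8 at 0, 1 and 3 h. A near-identical gene copy exists, so its probe set may read both. C11orf96 had 55.0 at 24 h against 341 at 6 h, 6.21-fold lower, and was under the floor at 0 h. ARL14, a small GTPase of vesicle traffic, had 280.4 at 24 h against 1694 at 6 h, 6.04-fold lower, after 299 at 0 h and 2799 at 3 h. HS3ST3B1, which sulfates heparan, had 37.2 at 24 h against 166 at 6 h, and RNF39 had 33.0 at 24 h against 131 at 6 h. TDO2, which degrades tryptophan, had 71.3 at 24 h against 307 at 6 h, and 127 at 0 h. The transcription factor gene SOX5 had 58.4 at 24 h against 257 at 6 h, 4.40-fold lower. The 24 h signal was above that of 0 h for C11orf96, RNF39 and HS3ST3B1, close to it for ARL14 and below it for HCAR3, TDO2 and SOX5.

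The 48 h and 3 h arrays, and the 1 h and 0 h arrays, share no array with the step. They still entered the choice of its genes, through the floor and through the brightest probe set, both taken over all 6 arrays. At 48 h against 3 h, 3.32% of 13122 genes tested were higher and 4.65% were lower. Of the 345 step-lower genes tested there, 153 were lower (44.3%) and 4 higher, with a median log2 ratio of -0.85 against -0.01 over all genes, and 299 were below 0. Of the 300 step-higher genes tested there, 57 were higher (19.0%) and 9 lower, with a median of 0.41 and 224 above 0. So the falls of the step were seen again at 2-fold on separate arrays for a larger share of genes than the rises were, a difference that was not tested. At 1 h against 0 h, 2.16% of 12936 genes tested were higher and 1.66% were lower. Of 333 step-lower genes tested there, 46 were higher (13.8%) and 9 were lower, and of 296 step-higher genes 5 were higher (1.69%) and 13 were lower (4.39%). Thus most of the genes lower at 24 h than at 6 h had not been 2-fold higher at 1 h. The median signal of the 357 step-lower genes was 62.2, 80.8, 75.7, 89.3, 35.9 and 39.3 over the 6 arrays, below its 0 h level at 24 h. The 312 step-higher genes had medians of 44.2, 44.1, 40.7, 24.7, 58.8 and 50.2, with the lowest at 6 h, and both sets were chosen on the 6 h and 24 h arrays. Of 138 lower genes that had 2 or more probe sets over the floor, 94 had all of them below 0, and of 131 such higher genes 82 had all above 0.

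**Figure D4:**
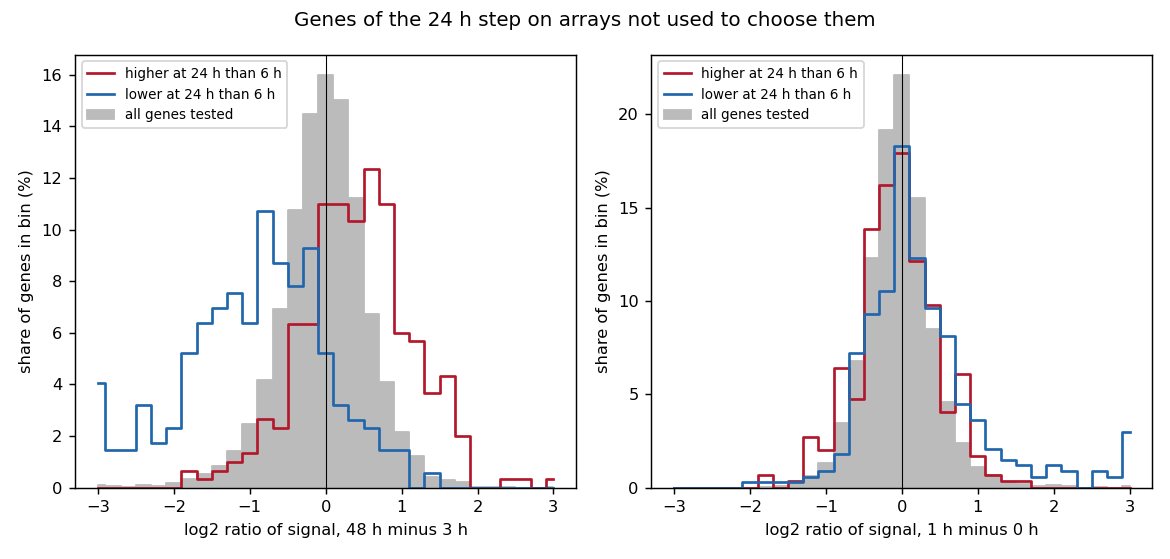
Share of genes in percent (vertical) by log2 ratio of signal in bins (horizontal, values beyond 3 placed in the end bins), at 48 h minus 3 h on the left and at 1 h minus 0 h on the right. The red line is the step-higher genes, the blue line the step-lower genes and grey all genes tested. On the left the blue line is centred at -0.85 and the red at 0.41, and on the right both lie near 0, with a tail of blue to the right.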

How the data were processed

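Gene expression of Caco-2 cells was measured on 6 Affymetrix HG-U133 Plus 2.0 arrays, as the platform annotation names them, with biotin-labelled cRNA made from 4 µg of total RNA per the labels' protocols. The deposited intensity values are MAS5 signals on a linear scale, MAS5 being named in the submitters' processing notes. Neither its version nor its scaling target is given in the sources used here, and detection calls were not used. MAS5 scales each array by a trimmed mean, and the 2% trimmed mean was 93.8 on all 6, so no further scaling was applied and RNA per cell is not measured. The intensities come from 1 array at each time, which limits the precision, and no replicate exists.

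Of 54675 probe sets, 41097 had 1 gene symbol in the platform annotation, 1801 several and 11777 none. Without control probe sets 41091 were used, and the gene identifiers of 41037 of them were found in RefSeq (GRCh38.p14), which updated symbols. They gave 19775 genes, 10523 with at least 2 probe sets, and the probe set with the highest mean was kept. Signals were floored at 16.2, log2 was taken, and a gene was tested where at least 1 of the 24 h and 6 h signals exceeded the floor. Called genes differ at least 2-fold. With n = 1 no test was made. The size rule was also run on simulated signals, made from the 6 h array with known changes seeded in bright genes. Their noise was set by hand, so that run does not show how often the calls here are wrong.

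The genes named are the 15 largest rises and 15 largest falls with a brighter signal of at least 100 that a second probe set or the 48 h against 3 h comparison repeated at 1.5-fold, the 4 largest differences of each of 55 gene lists, and a set always named. Of 1152 list entries 98 matched no probe set. KLF6, SP100, PPBP, RELA, ALB, AHSG, APOB, HSPD1 and UGT2B15 lie outside that rule and were chosen after their values were seen. The comparison and the lists were chosen with earlier results of these data known. Promoters are RefSeq sequences of GRCh38.p14, searched for motifs on both strands. Alternatives were 2 normalizations, 2 floors, a pseudocount, other probe set rules, other size rules and neighbouring arrays. Python 3.11.15 with numpy 2.4.6, pandas 2.3.3 and matplotlib 3.10.9 was used.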

Additional observations from a re-analysis of the deposited data

How the results depend on the processing

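No paired analysis was possible because each time has 1 array. The number of genes past the rule depended on the floor and the size rule. With the floor at the 30th percentile (6.38), 1146 genes were higher and 1169 lower, and at the 65th percentile (37.5), 125 and 191. A pseudocount in place of the floor gave 190 higher. Among genes with a brighter signal of at least 100, 85 were higher and 171 lower, so that 33.2% of called genes were higher there, against 46.6% in the main setting. A size rule of at least 1.5-fold gave 1396 higher and 1305 lower, and at least 3-fold gave 21 and 50. Asking for another probe set at least 1.5-fold the same way left 45 higher and 68 lower, and 48 h against 6 h gave 558 lower. The other 12 counts lay within 1.5 times the main ones. Against 3 h in place of 6 h, 99 of the 312 higher and 187 of the 357 lower genes were called again. The sign changed for 48 of 550 list medians. In 21 of them the main median lay beyond a yardstick, the SD among a gene's probe sets over the square root of the list size. That yardstick takes genes as independent and leaves out variation between arrays, so it is not an error of the median. These 21 come first. The clock list had -0.081 with quantile normalization, -0.046 at either other floor and -0.038 with the pseudocount. Cytokines had -0.040 at the 65th percentile floor, -0.0081 (median over probe sets) and -0.26 (48 h against 6 h), and caspases 0.32 at that floor. Claudins had 0.010 with the median over probe sets. Without the probe sets of suffix _x_at and _s_at, inhibitors of NF-kB had 0.27 and complement 0.052, and 2 of 3 CXC chemokines tested stayed lower. With the signal minimum, transporters had 0.069 and transcription factors -0.026. Against 3 h, JAK-STAT genes had 0.065 and hypoxia targets 0.081. At 48 h against 6 h, Wnt targets had -0.064, keratins -0.24, glycolytic enzymes -0.062, mitosis 0.16, ribosome assembly -0.015 and Caco-2 markers -0.22. The other 27 began nearer 0 and reached 0.29 for integrins and 0.28 for matrix proteases against 3 h, 0.19 for metallothioneins and -0.24 for the microvillus at 48 h against 6 h, and -0.67 (65th percentile floor) and -0.90 (signal minimum) for macrophage markers. Of single genes, NFKBIA had 0.43 and PLAUR 0.057 without the suffixed probe sets, MMP9 0.93, MRPS16 -0.069 and LAPTM5 0.40 against 3 h, and HSPA6 -0.15, MT1F 0.32 and SLC27A4 -0.055 at 48 h against 6 h. The causes were not tested. Signals near the floor limit what can be read: 84 higher and 91 lower genes have only a bound.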

Other observations

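Among probe sets that carry no gene name in the annotation, 159 were at least 2-fold higher and 127 at least 2-fold lower at 24 h than at 6 h, of 4685 whose brighter array was above the floor. They belong to no gene list and their transcripts were not examined further.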
